A study of Mus musculus with 2 samples.

Results

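The autosomal miR-15/16 family of the mouse was followed in 2 microRNA sequencing libraries of the adrenal gland. Its 6 hairpin genes, Mir15a, Mir16-1, Mir15b, Mir16-2, Mir195a and Mir497, were found by their GENCODE M21 symbols and Ensembl identifiers, and they are 6 of 2202 microRNA genes in the deposited tables. The glands came from male B6CASTF1/J mice aged 36 days, untreated as far as the labels say, with 1 library from each of 2 animals. B6CASTF1/J is the F1 hybrid of C57BL/6J and CAST/EiJ, so that each animal carries 1 genome of each strain. The labels number the animals separately but list one donor record for both, and they give no second condition. Every test below therefore compares these 2 libraries, not conditions. The gland holds steroid-producing cortex, catecholamine-producing medulla, vessels and capsule, and in such bulk tissue fewer cells of a type and less RNA per cell cannot be told apart.

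MicroRNAs are short RNAs cut from a hairpin precursor. They guide Argonaute proteins to messenger RNAs, mainly through the seed, bases 2 to 8 from the 5′ end, and lower the stability and translation of those messages. Members of the miR-15/16 family share 1 seed and are known to repress cell cycle genes such as Ccnd1, Ccne1, Cdk6 and Chek1 and the survival gene Bcl2. Loss of the human miR-15a and miR-16-1 locus is a hallmark of chronic lymphocytic leukaemia. In the adrenal cortex, miR-195 and miR-497 are known for low levels in carcinoma.

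The mature 5p sequences show what makes the 6 genes a family and why 2 of them are hard to tell apart. They are given 5′ to 3′ from RefSeq (GRCm38.p6), with the seed in capitals.
miR-15a-5p: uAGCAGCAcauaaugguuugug
miR-15b-5p: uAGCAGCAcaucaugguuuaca
miR-16-5p: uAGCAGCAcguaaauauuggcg
miR-195a-5p: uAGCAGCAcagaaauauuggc
miR-497a-5p: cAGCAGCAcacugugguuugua
The 6 genes yield 5 different 5p sequences, because Mir16-1 and Mir16-2 both yield miR-16-5p. Counting from 1 at the 5′ end, miR-16-5p and miR-195a-5p are identical at 19 of the 21 positions they share, with the changes G10A and U11G. miR-15a-5p and miR-15b-5p are identical at 18 of 22 positions, with A12C, G20A, U21C and G22A. The least alike are miR-16-5p and miR-497a-5p, at 11 of 22.

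The genes lie in 3 pairs (mm10, positions from 1). Mir15a (ENSMUSG00000093007.1; chromosome 14, 61632027 to 61632110, minus strand) lies in an intron of the long noncoding RNA gene Dleu2. Mir16-1 (ENSMUSG00000092995.1; 61631880 to 61631972) is 54 bases away and overlaps an exon of an annotated Dleu2 transcript. Mir15b (ENSMUSG00000065580.2; chromosome 3, 69009772 to 69009835, plus strand) and Mir16-2 (ENSMUSG00000065606.1; 69009902 to 69009996) are 66 bases apart in an intron of Smc4, which encodes a condensin subunit. Mir497 (ENSMUSG00000105220.1; chromosome 11, 70234717 to 70234800, plus strand) and Mir195a (ENSMUSG00000065411.2; 70235042 to 70235135) are 241 bases apart. Neither has a host gene on its strand in this annotation, and Mir497 lies opposite Mir497b, a microRNA gene on the minus strand.

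The libraries differed in depth and in what else they held. Replicate 1 had 12289288 reads, of which 4494857 (36.6%) were counted on the sense strand of microRNA genes, and replicate 2 had 10323816 reads, of which 2078824 (20.1%) were. Unmapped reads were 26.4% of replicate 1 and 51.9% of replicate 2. Erythroid microRNAs (Mir451a, Mir144 and Mir486, all 3 counted in both libraries) took 1.58% of the gene counts of replicate 1 and 0.109% of those of replicate 2. The epithelial miR-200 list took 0.00647% and 0.358%, with all 5 genes counted in both. The pancreas acinar genes Mir217, Mir216a and Mir216b had 0 counts in replicate 1, which allows up to 0.667 counts per 1000000 gene counts (CPM) each, and 677 counts together in replicate 2. No microRNA that defines the adrenal cortex was on the marker lists. The neuroendocrine list of 4 genes took 4.88% and 5.42%, with Mir375 at 44147 and 51780 CPM and Mir7b at 4326 and 2129 CPM. Its other 2 genes, Mir7-1 (233 and 165 CPM) and Mir7-2 (96.3 and 83.2 CPM), also had the higher level in replicate 1.

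Within the family, Mir195a, Mir16-1, Mir15a and Mir15b had mean levels between 1148 and 1963 CPM, and Mir16-2 had the lowest, 329 CPM. Reads are counted per hairpin, so the 5p and 3p arms cannot be separated. Levels were not divided by hairpin length, since the reads are short RNAs and not fragments of the hairpin.

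In the Dleu2 pair, Mir15a had 6187 counts in replicate 1 and 2666 in replicate 2. These correspond to 1376 CPM (exact Clopper-Pearson 95% interval 1342 to 1411) and 1282 CPM (1234 to 1332), with a mean of 1329 ± 66.5 CPM (SD, n = 2). Its level was thus close in the 2 libraries. Mir16-1 had 9901 and 1431 counts, or 2203 CPM (2160 to 2247) and 688 CPM (653 to 725), with a mean of 1446 ± 1071 CPM. Replicate 1 was high and replicate 2 low for Mir16-1, so that Mir16-1 exceeded Mir15a in replicate 1 and stood below it in replicate 2.

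In the Smc4 pair, Mir15b had 3627 and 3094 counts, or 807 CPM (781 to 834) in replicate 1 and 1488 CPM (1436 to 1542) in replicate 2, with a mean of 1148 ± 482 CPM. It was the only one of the 6 genes with the higher level in replicate 2. Mir16-2 had 2089 and 403 counts, or 465 CPM (445 to 485) and 194 CPM (175 to 214), with a mean of 329 ± 192 CPM. Mir16-2 was the lowest of the 6 in both libraries, though its counts may be too low, as described below.

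In the chromosome 11 pair, Mir195a had 13005 and 2146 counts, or 2893 CPM (2844 to 2943) and 1032 CPM (989 to 1077), with a mean of 1963 ± 1316 CPM. Mir497 had 4014 and 1206 counts, or 893 CPM (866 to 921) and 580 CPM (548 to 614), with a mean of 737 ± 221 CPM. Both were higher in replicate 1, Mir195a by more than Mir497.

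**Figure D1:**
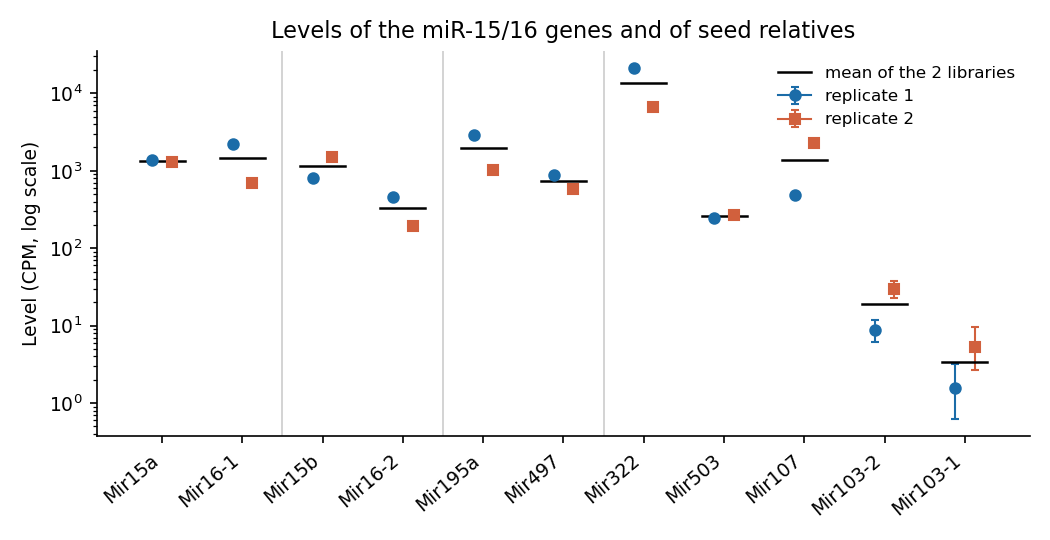
Level of each of the 6 genes and of 5 seed relatives in CPM on a log axis, with a circle for replicate 1, a square for replicate 2, a line for their mean and bars for exact 95% counting intervals (often smaller than the symbol). Mir15a stands at 1376 and 1282 CPM, whereas Mir16-1 stands at 2203 and 688 CPM.

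By mean CPM the order was Mir195a, Mir16-1, Mir15a, Mir15b, Mir497 and Mir16-2, at ranks 54, 67, 72, 78, 104 and 135 of all genes. Of the 5 steps in this order, the 1 from Mir497 to Mir16-2 was larger than the SD of either gene (a difference of means of 407 CPM against an SD of 221 CPM). The counts of Mir16-2 and Mir16-1 may be too low, as described below, so this step and their ranks are uncertain. Mir195a stood above Mir16-1 in both libraries, but the difference of means of 517 CPM was smaller than the SD of 1316 CPM. The other neighbours changed places between the libraries. In replicate 1 the order was Mir195a, Mir16-1, Mir15a, Mir497, Mir15b and Mir16-2, and in replicate 2 it was Mir15b, Mir15a, Mir195a, Mir16-1, Mir497 and Mir16-2.

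Together the 6 genes took 0.864% of the gene counts of replicate 1 (exact 95% interval 0.855 to 0.872) and 0.527% of those of replicate 2 (0.517 to 0.536). The mean was 0.695% ± 0.238 (SD, n = 2). The make-up of that sum also differed. Mir15b held 9.34% of the family's counts in replicate 1 and 28.3% in replicate 2, and Mir15a held 15.9% and 24.4%. Mir16-1 held 25.5% and 13.1%, and Mir195a 33.5% and 19.6%. The miR-15 genes thus took larger shares in replicate 2, and Mir16-1 and Mir195a in replicate 1. As the counts of Mir16-1 and Mir16-2 may be too low, as described below, all shares of this sum are uncertain. Mir497 held 10.3% and 11.0%, and Mir16-2 5.38% and 3.68%. By locus, the Dleu2 pair held 41.4% and 37.4%, the Smc4 pair 14.7% and 31.9% and the chromosome 11 pair 43.8% and 30.6%.

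**Figure D2:**
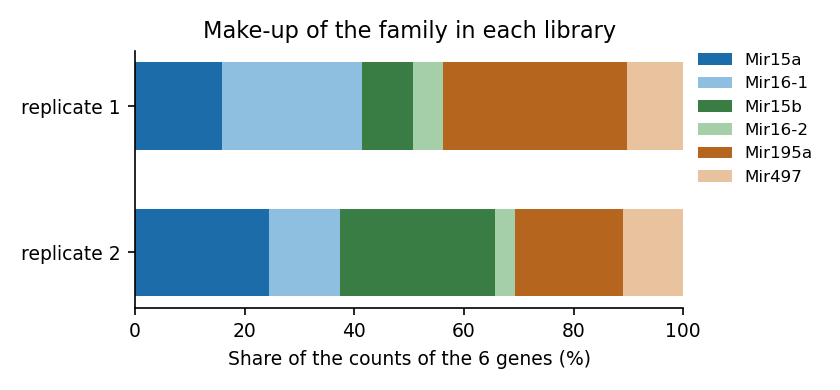
Share of the counts of the 6 genes held by each gene, in percent, for replicate 1 (upper bar) and replicate 2 (lower bar). Mir15b takes 9.34% and 28.3%, and Mir195a takes 33.5% and 19.6%.

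After TMM scaling, 5 of the 6 genes were higher in replicate 1 and Mir15b was higher in replicate 2. All 6 had at least 10 counts in both libraries and entered a two-sided exact binomial test of the 2 counts of each gene, which takes counting noise as its only error. The largest adjusted p of the 6 was 8.05e-18, for Mir15a (exact binomial test, Benjamini-Hochberg adjustment over 333 genes). Of all tested genes, the same test called 38.7% for replicate 1 and 39.3% for replicate 2, so that to be called was the usual outcome between these libraries. The median log2 ratio of replicate 2 over replicate 1 was -1.13 for the 6 genes and 0.01 for all 333.

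Mir16-1 had a log2 ratio of -1.86 (95% counting interval -1.94 to -1.78), that is a 3.64-fold higher level in replicate 1, and 8 of the 333 genes, itself included, lay at least as far toward replicate 1. Mir195a had -1.67 (-1.74 to -1.61) and Mir16-2 -1.45 (-1.60 to -1.29), or 3.19-fold and 2.73-fold. By their counts those 3 genes formed the strongly shifted part of the family. The counts of Mir16-1 and Mir16-2 may be too low, as described below, so their ratios are uncertain. Mir497 had -0.81 (-0.90 to -0.71), or 1.75-fold. Mir15a had -0.29 (-0.35 to -0.22), or 1.22-fold, the smallest difference of the 6. Mir15b had 0.70 (0.63 to 0.77), which is 1.62-fold higher in replicate 2.

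An edgeR exact test took the scatter of the genes between the 2 libraries as its dispersion (biological coefficient of variation 52.7%). That dispersion includes the differences under test, so the test could call few genes. By it 0 of the 6 genes were called and 0 had an unadjusted p under 0.05. The lowest unadjusted p was 0.105, for Mir16-1, and the adjusted p was 0.988 for each of the 6. That test called 0.601% of the 333 genes, and 17 genes had an unadjusted p under 0.05. Erythroid microRNAs moved the same way as the 5 genes that were higher in replicate 1, at 16.5-fold for the list, with Mir451a at 14362 and 903 CPM and Mir144 at 1441 and 153 CPM, while Mir486 stood at 38.7 and 35.1 CPM. The endothelial list took 7.48% and 6.48% of gene counts, also more in replicate 1. The smooth muscle and pericyte list did likewise, at 4.66% and 3.02%, although its gene Mir145a went the other way. Mir137, the tested gene of the neuronal list, was called higher in replicate 1, at 775 and 339 CPM. Other lists moved as Mir15b did, the fibroblast list (0.122% and 0.153%) among them. The epithelial list was 48.6-fold higher in replicate 2. The brown adipose list took 5.42% and 9.74% of gene counts, and all 3 of its 4 genes that were tested were called higher in replicate 2, among them Mir378a at 53936 and 94373 CPM and Mir193b at 256 and 3032 CPM. The liver gene Mir122 stood at 1383 and 2842 CPM. The part of these lists, and of the share of unmapped reads, in the family's difference was not tested.

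**Figure D3:**
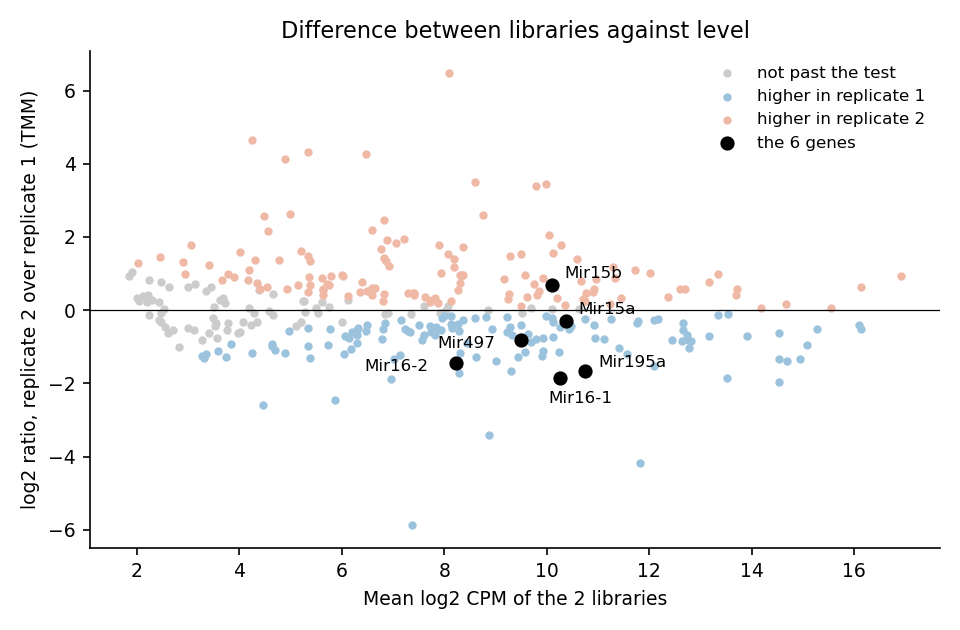
Mean log2 CPM of the 2 libraries (horizontal) against the log2 ratio of replicate 2 over replicate 1 after TMM scaling (vertical) for the 333 genes tested, coloured by the exact binomial test, with the 6 genes in black. Mir16-1, Mir195a and Mir16-2 lie between -1.86 and -1.45, and Mir15b lies above 0 at 0.70.

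Genes of a pair lie within 241 bases and are thought to be cut from 1 primary transcript, and their ratio within a library is free of any scaling between libraries. In both pairs of miR-15 with miR-16, the ratio of the miR-15 gene to its neighbour was higher in replicate 2. Mir15a over Mir16-1 was 0.625 in replicate 1 (95% counting interval 0.605 to 0.645) and 1.86 in replicate 2 (1.75 to 1.99), so the order of the 2 genes differed between the libraries. Mir15b over Mir16-2 was 1.74 (1.64 to 1.83) and 7.68 (6.92 to 8.54), so Mir15b was the higher gene in both. Mir195a over Mir497 was higher in replicate 1, at 3.24 (3.13 to 3.36) and 1.78 (1.66 to 1.91).

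On the log2 scale the ratio in replicate 2 minus that in replicate 1 was 1.58, 2.14 and -0.86 in the same order. The adjusted p-values were 6.34e-205, 2.40e-164 and 1.81e-47 (two-sided Fisher's exact test of the counts, Benjamini-Hochberg adjustment over 87 pairs of neighbouring microRNA genes on 1 strand). Of those 87 pairs 81.6% were called, and their median absolute shift was 0.70. Only 3 pairs had a larger absolute shift than Mir15b over Mir16-2, while 16 had a larger one than Mir15a over Mir16-1 and 33 a larger one than Mir195a over Mir497. The counts of Mir16-1 and Mir16-2 may be too low, as described below, so the shifts of the pairs that hold them are uncertain. Fisher's exact test too takes counting noise as its only error. Over the 2 libraries the mean log2 ratio was 0.11 ± 1.11 (SD, n = 2) for Mir15a over Mir16-1, 1.87 ± 1.52 for Mir15b over Mir16-2 and 1.26 ± 0.61 for Mir195a over Mir497, so that the SD of the first was larger than its mean.

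**Figure D4:**
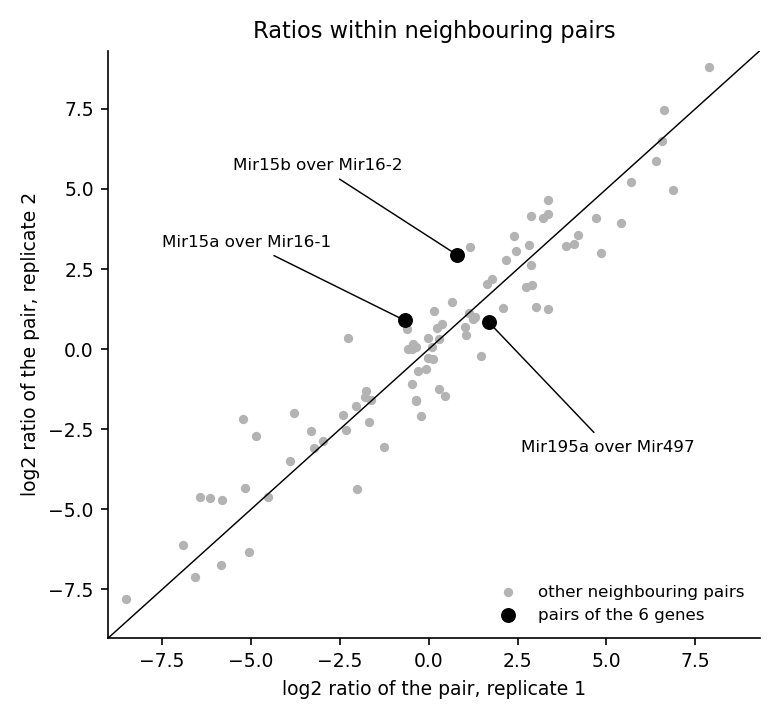
Log2 ratio of the 2 genes of each neighbouring pair in replicate 1 (horizontal) and replicate 2 (vertical) for 87 pairs, with the line of equal ratios and the 3 pairs of the family in black. Mir15b over Mir16-2 and Mir15a over Mir16-1 lie above the line by 2.14 and 1.58, and Mir195a over Mir497 lies below it, at -0.86.

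Mir16-1 and Mir16-2 need care, since reads that map to several places (29.8% of the reads of replicate 1 and 21.5% of those of replicate 2) are outside the gene counts. Their hairpins share 1 run of 23 bases, which holds the whole of miR-16-5p, whereas the longest run shared by any other pair of the 6 hairpins is 12 bases. The hairpins are printed with that run in capitals (RefSeq, GRCm38.p6; chr14:61631880-61631972, minus strand, and chr3:69009902-69009996, plus strand).
Mir16-1: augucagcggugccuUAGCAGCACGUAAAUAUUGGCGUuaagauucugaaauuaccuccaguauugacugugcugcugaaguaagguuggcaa
Mir16-2: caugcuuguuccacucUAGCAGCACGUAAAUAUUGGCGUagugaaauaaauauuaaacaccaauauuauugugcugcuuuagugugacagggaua
The 3p arms differ and can be told apart, and are shown with bases 2 to 8 in capitals.
miR-16-1-3p: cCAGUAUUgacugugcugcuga
miR-16-2-3p: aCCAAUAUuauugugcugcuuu
A read of miR-16-5p with no base beyond the shared run matches both hairpins alike, so the counts of both genes are uncertain and may be too low. How many such reads there were was not analysed here.

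Even so, both genes were counted, and Mir16-1 exceeded Mir16-2 by 4.74 times in replicate 1 (95% counting interval 4.52 to 4.97) and 3.55 times in replicate 2 (3.18 to 3.98). Their summed share was 0.267% and 0.0882% of gene counts, against 0.218% and 0.277% for Mir15a with Mir15b. As counted, the miR-15 genes, with no arm shared with another gene in the RefSeq table, held the larger share in replicate 2. The miR-16 genes held it in replicate 1. As the counts of the miR-16 genes may be too low, the order in replicate 2 is uncertain. Among 94 genes with an arm that another gene also encodes, 42 had at least 10 counts in both libraries, with a median of 45.7 CPM. Among 924 genes with no such arm 259 did, with a median of 236 CPM. Mir16-1 and Mir16-2 lay above both medians.

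The strand of the counts decides the value of Mir497. Its reads lie opposite Mir497b, and in the column that ignores strand Mir497 had 0 counts in both libraries. On the sense strand Mir497b had 1 count in replicate 1 and 0 in replicate 2, while its antisense column held the 4014 and 1206 counts of Mir497. The other 5 genes had 0 antisense counts and identical counts in the sense and strand-blind columns.

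In the RefSeq table, 11 microRNA genes encode a mature sequence with this seed. Of the 5 outside the family, Mir322 of the X chromosome was counted, and Mir195b, Mir6342, Mir6353 and Mir6419 had 0 counts in both libraries, which allows at most 0.667 and 1.44 CPM. miR-322-5p is shown to compare its bases beyond the seed with the sequences above, and has its seed in capitals. The last 3 are relatives outside this seed, with the first 6 bases of it in capitals. These start at base 2 in miR-503-5p, where base 8 differs, and at base 1 in miR-107-3p and miR-103-3p.
miR-322-5p: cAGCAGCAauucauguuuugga
miR-503-5p: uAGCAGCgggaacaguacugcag
miR-107-3p: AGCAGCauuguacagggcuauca
miR-103-3p: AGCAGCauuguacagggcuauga
Mir322, known from muscle differentiation and from hypoxic endothelium, stood at 20951 and 6610 CPM in replicates 1 and 2. It alone held 70.8% of the counts of the 7 counted genes with the seed in replicate 1 and 55.7% in replicate 2. The 6 autosomal genes held the rest, led in replicate 1 by Mir195a with 9.78% and in replicate 2 by Mir15b with 12.5%.

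The log2 ratio of Mir322 was -1.85 (95% counting interval -1.88 to -1.82), next to that of Mir16-1. Its neighbour Mir503 had 243 and 272 CPM and a log2 ratio of -0.02 (adjusted p = 0.798, exact binomial test), a value that was 0.16 with library size alone (adjusted p = 0.0387, exact binomial test). Mir107, in an intron of the pantothenate kinase gene Pank1, went the opposite way to most of the family, at 484 and 2285 CPM with a log2 ratio of 2.05 (1.98 to 2.13). Mir103-2, in an intron of Pank2, had 8.68 and 29.8 CPM and a log2 ratio of 1.60 (1.00 to 2.21), and Mir103-1, in an intron of Pank3, had 7 and 11 counts and was not tested. The mature sequence of the Mir103 genes is encoded at both loci, so their counts may be too low. As miR-107-3p differs from miR-103-3p only near its 3′ end, reads of Mir107 without that end match the Mir103 genes too. The counts of Mir107 may thus also be too low. Of the 4 tested genes of this wider group, 1 was called for replicate 1 and 2 for replicate 2. The adjusted p was 0.988 in the edgeR exact test for Mir322, Mir107 and Mir103-2.

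Other microRNAs tied to the cell cycle were read from 2 lists. Of the 9 genes of the Mir17hg and Mir106b clusters, whose products are known to favour proliferation, 7 were tested and all 7 were called higher in replicate 1 (6 with library size alone), with a median log2 ratio of -0.77 beside the -1.13 of the 6 genes and the 0.01 of all genes. Mir93 stood at 3689 and 3259 CPM and Mir17 at 2099 and 1813 CPM. Of 14 genes of microRNAs known to restrain the cell cycle, 12 were tested, of which 1 was called for replicate 1 and 7 for replicate 2, with a median log2 ratio of 0.64. That 1 gene was Mir26b, at 43834 and 12870 CPM, and the next highest, Mir29a, stood at 5085 and 8649 CPM. With Mir26b in the sum, the whole list took 5.08% of the gene counts of replicate 1 and 2.61% of those of replicate 2. The edgeR exact test called 0 genes of either list, and the background shares of called genes were those given above.

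For each of the 6 genes the most similar gene outside the family was taken, over the 2 libraries. Distance was measured in mean log2 CPM and log2 ratio, and members of the family were not candidates. Mir149, at 793 and 1457 CPM, was the nearest to Mir15b with a distance of 0.03. Mir431, at 1542 and 1294 CPM, was the nearest to Mir15a (0.18), Mir409, at 1044 and 648 CPM, to Mir497 (0.20), and Mir101a, at 532 and 184 CPM, to Mir16-2 (0.28). Mir16-1 and Mir195a had matches less close than these. Outside the family, the nearest to Mir16-1 was Mir337 at 1395 and 661 CPM (0.70). The nearest to Mir195a was Mir708 at 1679 and 868 CPM (0.74).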

How the data were processed

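The authors deposited raw read counts for each microRNA gene, 1 column without regard to strand and 1 for each strand, as the file layout shows. Reads were mapped to mm10 and counted on GENCODE M21, per the deposited text. Aligner and counter: not given in the sources used here. The strand column used as sense was fixed by its position, and its gene total was the larger in each library. Unmapped reads, reads mapping to several places (29.8% and 21.5%) and reads outside genes were left out of library sizes. CPM is the count per 1000000 gene counts. Intervals and floors (3 counts for a count of 0) cover counting error only, since PCR copies cannot be recognised.

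The members and lists were chosen with earlier results of these data known. Ratios used TMM scaling over genes that reached 10 counts in each library. With 1 library per animal, the quasi-likelihood test of edgeR could not be fitted, so each gene had an exact binomial test, and neighbouring genes on 1 strand within 10 kb had Fisher's exact test, both with Benjamini-Hochberg adjustment at 0.05 over all genes or pairs. Named genes were the 6 members, genes with the same seed and the wider group with Mir503, Mir107 and the Mir103 genes. To these were added the nearest non-member gene to each member and the 2 highest genes of each pathway list. Genes of the marker lists were named outside that rule, after their values were seen. Of the 6 genes, 5 had a hairpin in the RefSeq table and all had mature sequences. Whether CAST/EiJ alleles affected mapping was not tested. Counts were read with pandas 2.3.3 and NumPy 2.4.6 in Python 3.11.15 and tested with SciPy 1.17.1. Scaling used edgeR 4.0.16 and, as an alternative, DESeq2 1.42.0 in R 4.3.3. Plots were drawn with matplotlib 3.10.9.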

Additional observations from a re-analysis of the deposited data

How the results depend on the processing

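The alternatives were library size or DESeq2 size factors in place of TMM, count minimums of 5 and 50 or none, the strand-blind column, a linear correction for hairpin GC content, the edgeR exact test, a pseudocount of 1 CPM, leaving the highest gene out of the totals, pairs within 2 or 50 kb, and each library alone. With the edgeR exact test 0 genes of the family were called higher in replicate 1 and 0 in replicate 2, and of all genes 1 and 1 in place of 129 and 131. As its dispersion includes the differences under test, that test could call few genes. Under the other scalings, minimums and corrections each of the 6 genes kept its direction and its call, except that Mir497 could not be tested in the strand-blind column. Library size alone moved the median log2 ratio of all genes from 0.01 to 0.19. The log2 ratio of Mir15a, the smallest of the 6, ranged from -0.46 with no count minimum to -0.10 with library size alone. Mir503 moved from -0.02 to 0.16 with library size alone, and was called at -0.19 with no count minimum. The strand-blind column and the total without the highest gene raised the mean level of every gene of the family, except that Mir497 was 0 in the strand-blind column. Mir15a rose from 1329 CPM to 1631 and 1535 CPM in these settings, and Mir195a from 1963 CPM to 2398 and 2210 CPM. Mir16-1, Mir195a and Mir16-2 stood at 688, 1032 and 194 CPM with replicate 2 alone, against means of 1446, 1963 and 329 CPM. The differences of the 3 pairs were called under each alternative that gave a value. With 1 library from each animal, no setting separates differences between animals from those of tissue collection or library preparation.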

Other observations

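Read by their 5p sequence and not by locus, the genes of the family fell in another order, which was chosen after the values were seen and was not tested. The 3 genes that yield miR-16-5p or miR-195a-5p, which differ by G10A and U11G, had log2 ratios of -1.86, -1.45 and -1.67 although they lie on 3 chromosomes. The genes of miR-15a-5p and miR-15b-5p had -0.29 and 0.70, and that of miR-497a-5p -0.81. Mir322 also had -1.85, though miR-322-5p differs from miR-16-5p and miR-195a-5p beyond the seed. Counts are per hairpin, and reads of miR-16-5p that match both of its hairpins are outside them, so these ratios are not those of the 5p sequences alone. Mir195a over Mir16-1, from different chromosomes, was 1.31 in replicate 1 (95% counting interval 1.28 to 1.35) and 1.50 in replicate 2 (1.40 to 1.60), a smaller difference than that of any of the 3 neighbouring pairs of the family. Mir322 over Mir503, neighbours on the X chromosome, was 86.3 (81.3 to 91.7) and 24.3 (22.4 to 26.5).

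The endothelial gene Mir126a stood at 74830 and 64786 CPM in replicates 1 and 2, and its partner Mir126b at 11.3 and 11.1 CPM. The 2 smooth muscle and pericyte genes differed in direction, with Mir143 at 45047 and 26223 CPM and Mir145a at 1564 and 3998 CPM. The leukocyte list of 6 genes took 0.322% and 0.390% of gene counts, and its genes were split. Of the 5 tested, Mir142 (550 and 435 CPM), Mir155 (355 and 274 CPM) and Mir223 (101 and 77.9 CPM) were called higher in replicate 1 by the exact binomial test. Mir146 (1479 and 2008 CPM) and Mir150 (734 and 1104 CPM) were called higher in replicate 2, and the median log2 ratio of the 5 was -0.52.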
